A study of Mus musculus with 16 samples.

Results

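The enzymes that take fatty acids apart inside mitochondria were read as messenger RNA in cultured brown adipocytes given a compound that sets off lipolysis, the breakdown of stored fat. They are Acadvl, Acadl, Acadm, Acads, Hadha, Hadhb, Hadh, Echs1, Acaa2 and Etfdh, picked by gene symbol as the core enzymes of the pathway. The 10 genes are 10 of 20295 in the deposited table of read counts, and all 10 were among the 12786 genes with enough counts to be tested.

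Mitochondrial beta-oxidation shortens a fatty acid, bound to coenzyme A, by a pair of carbons in each round of dehydrogenation, hydration, a further dehydrogenation and thiolysis. The acyl-CoA dehydrogenases start the round and differ in the chain length they accept, and their electrons pass through electron transfer flavoprotein and its dehydrogenase, Etfdh, to the respiratory chain. Brown adipocytes are rich in mitochondria and burn fatty acids released from their own lipid droplets to make heat.

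The cells were BAT-LgT, a mouse brown preadipocyte line made immortal with the large T antigen of SV40 and differentiated in culture. On day 7 they were kept for 1 h with no inhibitor, with 5 µM triacsin C, which blocks the long-chain acyl-CoA synthetases that activate fatty acids, or with 50 µM etomoxir, which blocks the carnitine palmitoyltransferase that lets them into mitochondria. They were then treated for 3 h with or without SR-3420, a ligand of ABHD5 that sets the lipase ATGL to work on the lipid droplets, and RNA was sequenced. The design asks how lipolysis acts on transcripts and whether that action needs fatty acids to be activated or carried into mitochondria.

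There were 16 samples in 6 groups. Vehicle (replicates 2 and 3) and SR-3420 alone (replicates 1 and 3) had 2 samples each. Each inhibitor, triacsin C or etomoxir, was given alone in 3 samples and followed by SR-3420 in 3 others. The labels give SR-3420 at 10 µM, while the study's text gives a higher dose. All samples came from 1 immortalised line of wild-type genotype, and the study describes 3 independent experiments, so the replicates are cultures and not animals. Total counts were 14032494 and 10097582 for vehicle and 19156037 and 15667121 for SR-3420. They were 9452861, 15818919 and 13164376 for triacsin C and 16265789, 12043744 and 10659704 for triacsin C with SR-3420. Etomoxir samples held 14993463, 11813662 and 10993504 counts, and those with etomoxir and SR-3420 held 25670624, 13173278 and 16512525.

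The labelled cell type was checked against marker genes. General adipocyte markers were high in all 16 samples, with Fabp4 at the top of that list. Markers that set brown adipocytes apart differed in level. Ucp1 had only 5 to 57 counts per sample and Dio2 0 to 2, whereas Cox8b had 430 to 2601, Ppargc1a 207 to 1302, Ebf2 167 to 1263 and Prdm16 77 to 694. The brown list (9 genes, 8 tested, Cox8b the highest) summed to 303 and 247 CPM (counts scaled to library size, edgeR's normalised measure of level) in vehicle, 252 and 239 in SR-3420, 217, 287 and 261 in triacsin C, 133, 150.1 and 148 in triacsin C with SR-3420, 253, 269 and 268 in etomoxir and 177, 177 and 260.1 in etomoxir with SR-3420. Muscle markers (6 genes, 2 tested, Acta1 the highest) summed to between 2.65 and 12.9 CPM, with Myf5 at 0 or 1 counts. Macrophage markers (4 genes, 2 tested, Cd68 the highest) summed to between 3.96 and 17.9, with Emr1 between 0 and 3 counts and Ptprc between 0 and 16. Endothelial markers (3 genes, 1 tested, Kdr the highest) summed to between 0.860 and 3.29, with Pecam1 between 0 and 13 counts and Cdh5 between 0 and 10.

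In what follows a level is a normalised count on the CPM scale, with library sizes adjusted by TMM factors, and a difference is a log2 fold change. A difference counts as higher or lower when its Benjamini-Hochberg adjusted p in edgeR's quasi-likelihood test, over 12786 genes, is under 0.05.

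All 10 enzymes were made as messenger RNA in every sample. Per kilobase of counted length, vehicle levels were 254 ± 27.9 CPM for Acadvl (mean ± SD, n = 2 for each gene here), 228 ± 6.99 for Echs1, 214 ± 40.8 for Acadm, 213 ± 55.3 for Acaa2 and 192 ± 6.49 for Hadh. They were 188 ± 7.84 for Acadl, 159 ± 49.5 for Acads, 119 ± 5.396 for Hadha, 89.0 ± 3.87 for Etfdh and 18.5 ± 1.68 for Hadhb. In this order of levels per kilobase the samples of Acadvl lay above those of Echs1, those of Acads above Hadha, those of Hadha above Etfdh and those of Etfdh above Hadhb, while each of the other neighbours overlapped. The vehicle level of 9 of the enzymes lay between the 93.54 and 98.4 percentiles of the genes tested, and that of Hadhb at 64.6. After triacsin C with SR-3420 the order of levels per kilobase was Acaa2 at 128 ± 20.8 CPM (mean ± SD, n = 3 for each gene here), Acadvl at 118 ± 7.67, Acadl at 103 ± 17.3, Hadh at 90.9 ± 9.27 and Acadm at 89.9 ± 19.1. Echs1 followed at 86.0 ± 8.32, then Hadha at 73.1 ± 3.88, Acads at 55.6 ± 8.11, Etfdh at 50.3 ± 4.58 and Hadhb at 9.01 ± 2.30. Samples of neighbours in that order did not overlap for Echs1 and Hadha, for Hadha and Acads, and for Etfdh and Hadhb.

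**Figure D1:**
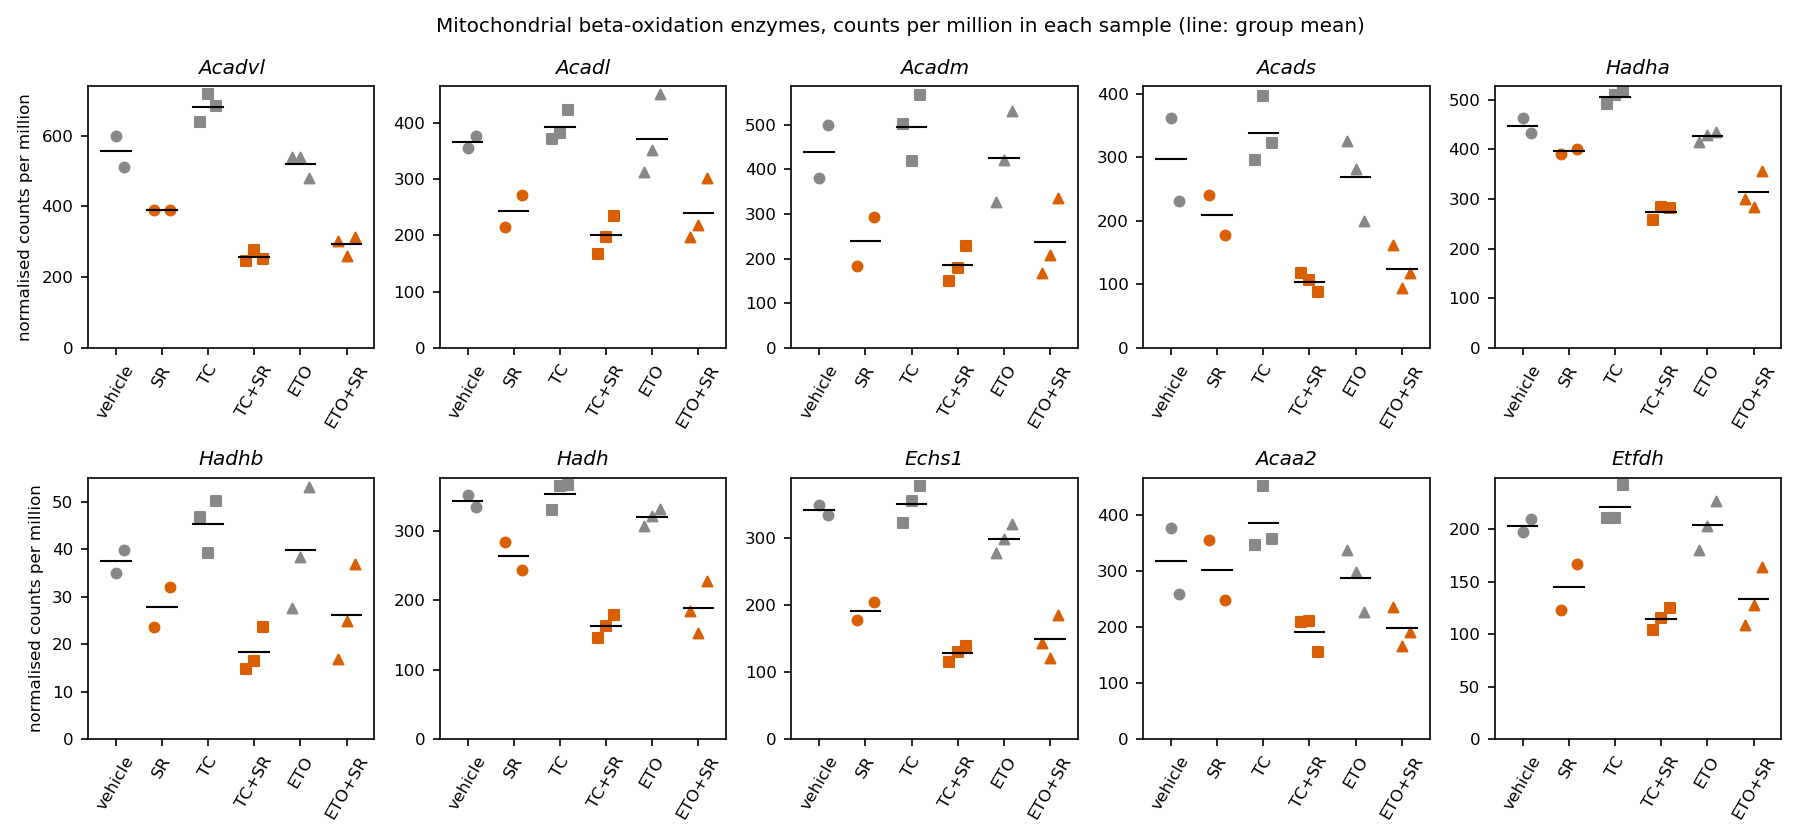
Level of each of the 10 enzymes in CPM (vertical axes, from 0) in every sample, by group (SR, SR-3420; TC, triacsin C; ETO, etomoxir), with a line at the group mean. In each panel the 3 points of triacsin C with SR-3420 lie below the 3 points of triacsin C alone, as for Acadvl at 247, 277 and 250.03 against 640.0, 718 and 684.

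The level of the enzymes together fell under SR-3420. Summed over the 10 genes it was 3469.8 and 3233 CPM in the vehicle samples and 2384 and 2429.7 with SR-3420. With triacsin C it was 3556, 3847 and 3903, and 1528, 1680.2 and 1704 once SR-3420 was added. With etomoxir it was 3053, 3184 and 3260.1, and 1819, 1659 and 2234 once SR-3420 was added. Every sample given SR-3420 lay below every sample not given it, and those given it with either inhibitor lay below those given it alone. The group means were 3351 ± 167 (SD, n = 2), 2407 ± 32.5 (SD, n = 2), 3769 ± 186 (SD, n = 3), 1638 ± 95.4 (SD, n = 3), 3166 ± 105 (SD, n = 3) and 1904 ± 297 (SD, n = 3) in the same order. In bulk RNA, fewer cells of a type and less RNA per cell cannot be told apart.

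Markers of cell identity were summed in the same samples. The 8 general adipocyte markers, all tested, summed to 22822 and 20628 CPM in vehicle, 17783 and 15428 in SR-3420, 21865, 23807 and 22706 in triacsin C, 9282, 9171 and 9655 in triacsin C with SR-3420, 21785, 20085 and 22507 in etomoxir and 11894, 8612 and 14502 in etomoxir with SR-3420. The 10 preadipocyte and fibroblast markers, all tested and led by Col1a1, summed to 3174 and 2810.2, 6617 and 5128, 4512, 3939.5 and 3556, 7652, 6549 and 5549, 3904, 2874 and 2033 and 7761, 5977 and 4242 CPM in the same order of groups. Of the adipocyte markers 1 was lower with SR-3420 alone, 7 with triacsin C, 7 with etomoxir and 8 in the average over the 3 arms, beside 2.79%, 19.7%, 12.8% and 23.4% of all genes. Of the preadipocyte and fibroblast markers 1, 4, 7 and 10 were higher in the same order, beside 607, 2208, 1597 and 2912 of the 12786 genes. Both counts of 1 were 0 without any 1 of the vehicle and SR-3420 samples. With triacsin C the 4 were 2 without triacsin C replicate 3 or replicate 1 of triacsin C with SR-3420. With etomoxir the 7 adipocyte markers were 4 without etomoxir replicate 1 and 2 without replicate 2 of etomoxir with SR-3420, and the 7 others were 4 without etomoxir replicate 2, etomoxir replicate 3 or replicate 2 of etomoxir with SR-3420, and 3 without its replicate 1. Of the lists for brown adipocytes, muscle, macrophages and endothelium, the average over the arms was lower for 1 and higher for 2 of 8 tested brown markers, higher for 1 of 2 muscle markers and for 1 of 1 endothelial marker, and past the test for 0 of 2 macrophage markers (0 at an unadjusted p under 0.05 and 0 by DESeq2). The 2 higher brown markers were 1 when any sample was left out other than etomoxir replicate 3 or replicate 1 of either inhibitor with SR-3420. By arm, 1, 3 and 1 of the 8 tested brown markers were lower with SR-3420 alone, triacsin C and etomoxir. In the same order 0, 2 and 0 were higher, with medians of 0.34, -0.24 and 0.15. The macrophage marker Cd68 was at 14.8, 16.5 and 15.2 CPM with triacsin C alone and at 3.23 to 8.13 in the other samples. Of the 2 macrophage markers 1 was higher with triacsin C against vehicle, beside 4.77% of all genes. Cd68 was lower with SR-3420 in the triacsin C arm (-1.29, adjusted p = 0.000651), beside 19.7% of all genes. It was also lower in the response difference between triacsin C and no inhibitor (-1.98, 0.0139), beside 1.27% of all genes, a call lost without vehicle replicate 3 or SR-3420 replicate 1. In the response difference between triacsin C and etomoxir 1 of the 2 macrophage markers was lower as well, beside 0.774% of all genes. No marker of the adipocyte or the preadipocyte and fibroblast list was at 0 in any sample, and the part of any of these markers in the fall of the enzymes was not tested.

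**Figure D2:**
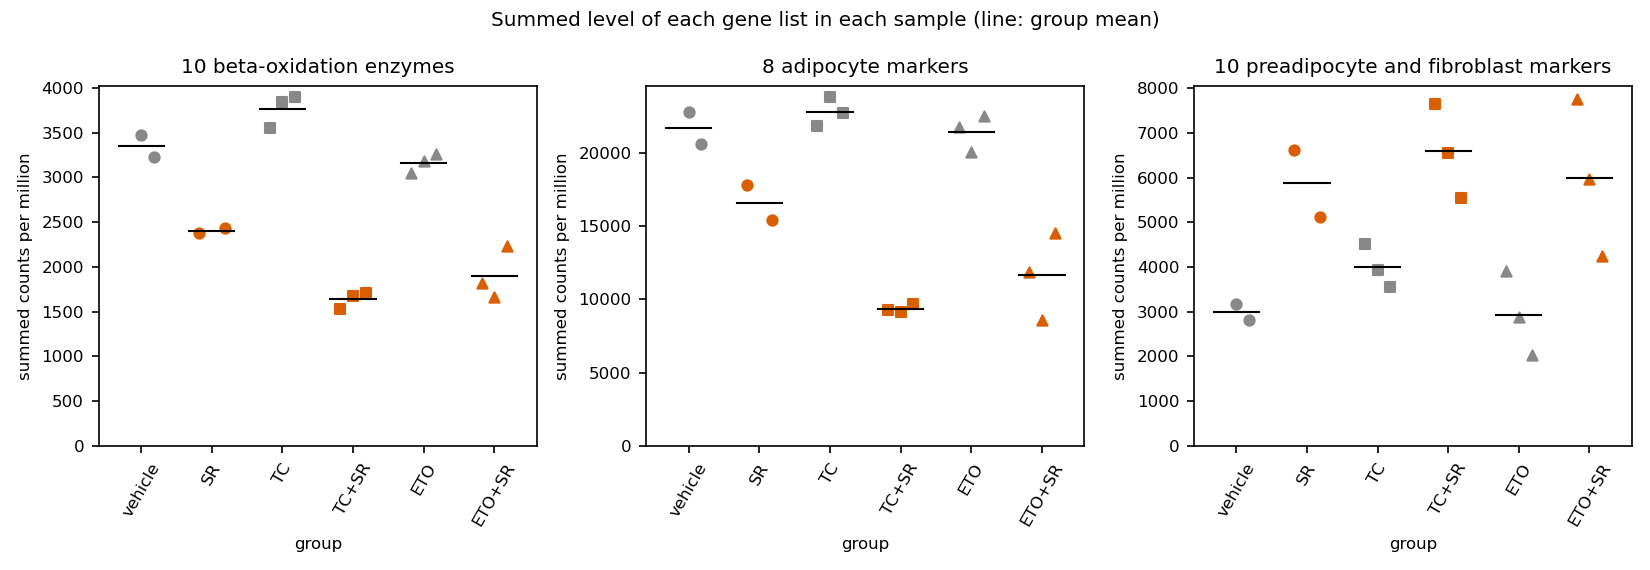
Summed level in CPM (vertical axes, from 0) of the 10 enzymes, of 8 general adipocyte markers and of 10 preadipocyte and fibroblast markers in every sample, by group (SR, SR-3420; TC, triacsin C; ETO, etomoxir). The enzymes' sum lies between 1528 and 2429.7 in the samples given SR-3420 and between 3053 and 3903 in the others.

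Acadvl, the very long-chain acyl-CoA dehydrogenase of the inner membrane, lies at chr11:69823685-69828930 on the minus strand (mm9, 20 exons). Its level was 599 and 513 CPM in vehicle and 391 and 389.7 with SR-3420. Triacsin C samples held 640.0, 718 and 684, and 247, 277 and 250.03 with SR-3420 as well. Etomoxir samples held 541, 540.1 and 482, and 303, 259.9 and 315 with SR-3420 as well. In each arm the samples given SR-3420 lay below the others with no overlap, and the replicates of SR-3420 alone were nearly the same. The difference was -1.40 ± 0.12 (SE) with triacsin C (adjusted p = 3.83e-06), which left 37.9% of the level, and -0.91 ± 0.071 (SE) averaged over the 3 arms (adjusted p = 5.46e-07).

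Acadm, the medium-chain acyl-CoA dehydrogenase, lies at chr3:153585317-153607607 on the minus strand. Its level was 381 and 499.8 CPM in vehicle and 183 and 294 with SR-3420. With triacsin C the level was 501, 419.9 and 567, and 150.3, 178 and 228 with SR-3420 added. With etomoxir the level was 327, 421 and 531, and 168, 208 and 337 with SR-3420 added. Replicate 3 was the highest sample in each of the 6 groups, and the etomoxir groups overlapped, as replicate 3 with SR-3420 passed replicate 1 without it. Acadm fell by 1.42 on the log2 scale with triacsin C (SE 0.28, adjusted p = 0.00151) and averaged -1.05 ± 0.17 (SE) over the 3 arms (adjusted p = 0.000268).

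Since the enzymes moved together, the 250 bases before each start were searched on both strands for AGGTCA, the core letters read by PPAR, ERR and other nuclear receptors known to act on beta-oxidation genes. RefSeq promoter sequences (GRCm38.p6) were at hand for 9 of the 10 genes, and Acaa2 was not among them. AGGTCA was in 3 of 9 of these windows, those of Acadvl, Acadm and Echs1, and in 4607 of 32851 of all promoter windows (14%). The longer AAGGTCA, which contains AGGTCA, was in 1 of 9 (Acadm) and in 1340 of all (4.08%), and AGGTCANAGGTCA, a pair of cores 1 base apart, in 0 of 9 and in 11 of all (0.0335%). The window of Echs1 overlapped the annotated gene Paox and is not shown. The windows of Acadvl and Acadm, which overlapped no annotated gene, are shown 5′ to 3′ along the gene with AGGTCA or its reverse complement TGACCT in capitals. Acadvl is chr11:70015429-70015678, minus strand, with the match from -87 to -82, and Acadm is chr3:153944644-153944893, minus strand, with the match from -249 to -244 on the opposite strand. A match of letters is a description and no evidence of binding.
Acadvl: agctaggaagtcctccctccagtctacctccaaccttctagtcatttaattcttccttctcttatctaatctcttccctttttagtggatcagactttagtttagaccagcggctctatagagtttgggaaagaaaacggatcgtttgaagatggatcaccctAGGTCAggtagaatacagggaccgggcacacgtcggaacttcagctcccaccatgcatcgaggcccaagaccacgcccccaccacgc
Acadm: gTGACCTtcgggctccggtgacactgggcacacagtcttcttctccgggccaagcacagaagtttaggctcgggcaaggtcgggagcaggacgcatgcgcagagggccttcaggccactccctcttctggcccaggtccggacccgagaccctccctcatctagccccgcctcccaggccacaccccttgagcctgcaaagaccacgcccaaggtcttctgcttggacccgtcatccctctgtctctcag

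Acadl, the long-chain acyl-CoA dehydrogenase, lies at chr1:66877413-66909883 on the minus strand. The samples without inhibitor held 356 and 377 CPM in vehicle and 215 and 272 with SR-3420. Those with triacsin C held 372, 382 and 423, and 167, 198 and 235 with SR-3420 added. Those with etomoxir held 313, 352 and 452, and 198, 218 and 301 with SR-3420 added. No SR-3420 sample reached a sample of its own arm without SR-3420, and replicate 3 was again the highest of all 6 groups. The difference was -0.97 ± 0.19 (SE) with triacsin C (adjusted p = 0.00129) and -0.73 ± 0.12 (SE) averaged over the 3 arms (adjusted p = 0.000194).

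Acads, the short-chain acyl-CoA dehydrogenase, lies at chr5:115560308-115569355 on the minus strand. Vehicle samples held 363 and 232 CPM, and SR-3420 samples 241 and 178. Under triacsin C the values were 296, 397 and 322, and 117, 107 and 87.4 with SR-3420 added. Under etomoxir the values were 326, 282 and 200.5, and 162, 94.7 and 118 with SR-3420 added. Vehicle replicate 3 lay below SR-3420 replicate 1, so these groups overlapped, while the groups in both inhibitor arms did not. With triacsin C the level went to 30.7%, the lowest share among the 10 enzymes in any arm (log2 -1.70 ± 0.25 (SE), adjusted p = 0.000181), and the average over the 3 arms was -1.11 ± 0.15 (SE) (adjusted p = 6.69e-05).

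Hadha and Hadhb code for the subunits of the trifunctional protein, which carries out the later steps on long chains. They lie head to head on chromosome 5, Hadha at chr5:30444844-30481520 on the minus strand and Hadhb at chr5:30481793-30511133 on the plus strand. Hadha held 462 and 434 CPM in vehicle and 391 and 401 with SR-3420. It held 491, 509 and 515 with triacsin C, 258, 284 and 282 with both, 414, 428 and 436 with etomoxir and 299, 284 and 357 with etomoxir and SR-3420. The groups did not overlap in any arm, and the replicates lay close, with an SD that averaged 4.84% of the mean. Hadha differed by -0.88 ± 0.11 (SE) with triacsin C (adjusted p = 4.43e-05) and by -0.50 ± 0.066 (SE) averaged over the 3 arms (adjusted p = 4.19e-05), the smallest fall of the 10. Hadha overlaps Gareml on the opposite strand, a gene with 25 to 248 counts per sample against 3002 to 7447 for Hadha.

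Hadhb had fewer counts, 196 to 662 per sample. Its level was 35.02 and 39.8 CPM in vehicle and 23.5 and 32.1 with SR-3420. It was 46.8, 39.2 and 50.2 with triacsin C, 14.7, 16.5 and 23.5 with both, 27.7, 38.4 and 53.2 with etomoxir and 16.9, 24.8 and 37.0 with etomoxir and SR-3420. Replicate 3 was the highest in all 6 groups, and the etomoxir groups overlapped. Hadhb differed by -1.32 ± 0.30 (SE) with triacsin C (adjusted p = 0.0036) and by -0.78 ± 0.18 (SE) averaged over the 3 arms (adjusted p = 0.00329). Of its 2046-base transcript, 94.5% also matched elsewhere in the genome at 95% identity or more over at least 50 bases, the longest match being 1934 bases at 97.4% identity at chr15:103416878-103418809. None of the other 9 transcripts had such a match, so the level of Hadhb beside the rest is uncertain.

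Echs1, the short-chain enoyl-CoA hydratase of the hydration step, lies at chr7:147291622-147302322 on the minus strand. Its level was 348 and 333 CPM in vehicle and 177 and 204 with SR-3420. Triacsin C gave 322, 354 and 377 alone and 115, 131 and 139 with SR-3420. Etomoxir gave 277, 298 and 319.6 alone and 143, 120.3 and 185 with SR-3420. Each group with SR-3420 stood clear below its partner. The difference was -1.45 ± 0.15 (SE) with triacsin C (adjusted p = 1.71e-05) and -1.10 ± 0.094 (SE) averaged over the 3 arms (adjusted p = 1.12e-06).

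Hadh, the dehydrogenase of medium- and short-chain hydroxyacyl-CoA, lies at chr3:130936338-130975019 on the minus strand. It stood at 352 and 335 CPM in vehicle and 284 and 244 with SR-3420. It stood at 330.2, 364 and 366 with triacsin C and 146, 162 and 179 with both. It stood at 308, 321 and 332 with etomoxir and 185, 154 and 228 with etomoxir and SR-3420. Again no groups of an arm overlapped. Hadh differed by -1.12 ± 0.14 (SE) with triacsin C (adjusted p = 6.15e-05) and by -0.75 ± 0.087 (SE) averaged over the 3 arms (adjusted p = 1.44e-05).

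Acaa2, the mitochondrial thiolase that ends the round, lies at chr18:74938866-74965861 on the plus strand. The level in vehicle was 378 and 260.3 CPM, and with SR-3420 it was 356 and 249. The level in triacsin C was 347, 453 and 358, and with SR-3420 added it was 209.5, 211 and 156. The level in etomoxir was 339, 298 and 228, and with SR-3420 added it was 237, 167 and 192. Groups overlapped without inhibitor and with etomoxir, and lay apart with triacsin C. Replicate 3 was the lowest sample in 4 of 6 groups, for Acaa2 as for Acads. The difference was -1.01 ± 0.22 (SE) with triacsin C (adjusted p = 0.00269) and -0.54 ± 0.13 (SE) averaged over the 3 arms (adjusted p = 0.00489).

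Etfdh, which hands the electrons of the dehydrogenases to ubiquinone, lies at chr3:79407710-79432689 on the minus strand. It measured 197 and 209 CPM in vehicle and 123 and 167 with SR-3420. It measured 211, 210.4 and 242 with triacsin C and 104, 115 and 125 with both. It measured 180.3, 203 and 227 with etomoxir and 109, 128 and 164 with etomoxir and SR-3420. In all 3 arms the SR-3420 samples lay lower with no overlap. Etfdh differed by -0.95 ± 0.16 (SE) with triacsin C (adjusted p = 0.000617) and by -0.68 ± 0.10 (SE) averaged over the 3 arms (adjusted p = 0.000119).

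The first question is what lipolysis does with no inhibitor present. Vehicle held replicates 2 and 3 and SR-3420 replicates 1 and 3, so only replicate 3 was in both groups. SR-3420 against vehicle left Echs1 at 55.8% of its vehicle level and Acadvl at 70.2%, and these were the 2 of 10 enzymes called lower, where 2.79% of all genes were. The differences were -0.84 ± 0.18 (SE) for Echs1 (n = 2 and 2, adjusted p = 0.014) and -0.51 ± 0.14 (SE) for Acadvl (adjusted p = 0.0411). The other 8 had values from -0.88 for Acadm (adjusted p = 0.14) to -0.077 for Acaa2 (adjusted p = 0.9) and did not pass the test. All 10 values were below 0, though that of Acaa2 was 0.22 without vehicle replicate 2 and 0.16 without SR-3420 replicate 3, with a median of -0.50 against -0.0038 over all genes tested. Samples of 8 enzymes lay lower with no overlap, as did those of 21.2% of all genes. Leaving out 1 sample at a time left both calls lost without vehicle replicate 2 (adjusted p = 0.227 for Acadvl and 0.0831 for Echs1), vehicle replicate 3 (0.0773 and 0.0714) or SR-3420 replicate 1 (0.177 and 0.13), and that of Acadvl lost without SR-3420 replicate 3 (0.131). A fit of only these 4 samples called 0 (adjusted p 0.357 and 0.183), a fit with no filter on low counts called Echs1 alone (Acadvl 0.0682), and scaling by the total count alone moved the median of all genes from -0.0038 to -0.12, and the lower share of called genes from 37.0% to 55.1%, with all 10 enzymes still below 0. With the replicate number fitted as a block 5 enzymes were lower, beside 1015 of the 12786 genes.

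The second question is whether the change needs fatty acids to be activated. The control here was triacsin C alone and not vehicle. The paper reports that triacsin C alone raised fatty acid release from unstimulated cells. Pdk4 and Plin2, genes it names as turned on by lipolysis, were both higher with triacsin C against vehicle, beside 4.77% of all genes. With triacsin C present SR-3420 lowered all 10 enzymes, where 19.7% of all genes were lower. The differences ran from -1.70 for Acads to -0.88 for Hadha, with a median of -1.22 against 0.019 over all genes, and left 30.7% to 54.4% of the level with triacsin C alone. For all 10 the 3 samples with SR-3420 lay below the 3 without it, as they did for 28.5% of all genes. The count stayed at 10 when any 1 of these samples was left out.

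The third question is whether it needs fatty acids to enter mitochondria through the etomoxir-sensitive step. With that step blocked, SR-3420 lowered 8 of the 10 enzymes, where 12.8% of all genes were lower. Acads was at 46.3% of its level with etomoxir alone (-1.11 ± 0.25 (SE), n = 3 and 3, adjusted p = 0.00505), Echs1 at 50.1% (-0.998 ± 0.15 (SE), adjusted p = 0.000409), Acadvl at 56.2% (-0.83 ± 0.11 (SE), adjusted p = 0.000217) and Hadha at 73.6% (-0.44 ± 0.11 (SE), adjusted p = 0.00763). Hadh differed by -0.76 (adjusted p = 0.00165), Acadm by -0.84 (0.0395), Acadl by -0.64 (0.0233) and Etfdh by -0.61 (0.0149). Hadhb at -0.60 (adjusted p = 0.149) and Acaa2 at -0.54 (0.0831) did not pass. The median was -0.70 against 0.0094 over all genes, and 7 enzymes had groups with no overlap, as did 16.5% of all genes. The calls of Acadl, Acadm and Etfdh rest on single samples: 5 remained without replicate 1 of etomoxir with SR-3420 (adjusted p 0.078, 0.119 and 0.0543) or without its replicate 2 (0.0931, 0.141 and 0.0598), Acadm was lost without etomoxir replicate 2 (0.0857), and Acadl and Acadm without etomoxir replicate 3 (0.0822 and 0.118), where Acaa2 was gained (0.0398). Without replicate 3 of etomoxir with SR-3420 there were 9, as Hadhb passed (adjusted p = 0.0331), a fit of only these 6 samples called 4, and with no filter on low counts Acadm was lost (0.0501). With the total count alone 9 were called. With the replicate number fitted as a block 10 were lower, beside 2879 of the 12786 genes.

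**Figure D3:**
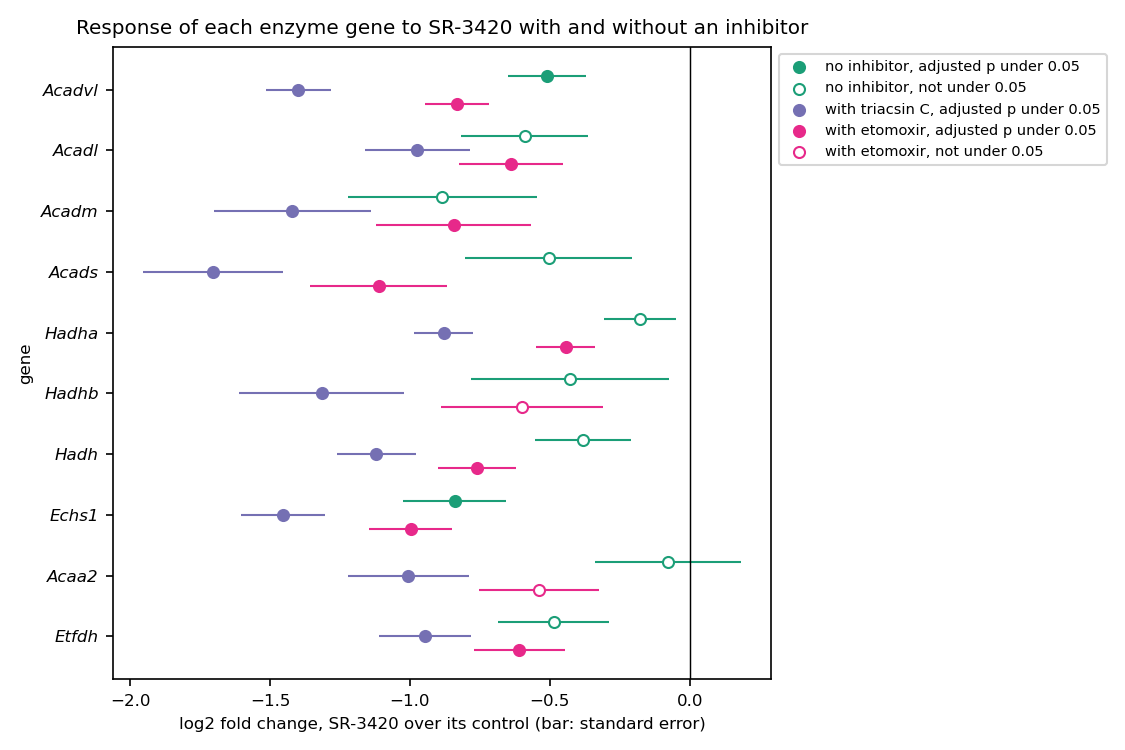
Log2 fold change for SR-3420 (horizontal axis, log2 scale, bars of 1 standard error) of each of the 10 enzymes in the arms without inhibitor, with triacsin C or with etomoxir, filled where the adjusted p was under 0.05. All values lie below 0, from -1.70 for Acads with triacsin C to -0.077 for Acaa2 without inhibitor.

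Averaged over the 3 arms, SR-3420 lowered every one of the 10 enzymes, where 23.4% of all genes were lower. The averages ran from -1.11 for Acads and -1.10 for Echs1 to -0.54 for Acaa2 and -0.50 for Hadha, with a median of -0.77 against 0.0076 over all genes. In linear terms the samples with SR-3420 held 46.4% to 70.7% of the level without it. The count stayed at 10 without any 1 of the 16 samples.

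The inhibitors alone were then set against vehicle. Triacsin C changed 0 of the 10 enzymes, where 6.94% of all genes were lower and 4.77% higher by edgeR's quasi-likelihood test. At an unadjusted p under 0.05 there was 1, Acadvl at 0.29 (adjusted p = 0.177), and DESeq2's Wald test called 0. The 10 values ran from 0.042 to 0.29, with 95% intervals that together spanned -0.49 to 0.98. Etomoxir also changed 0 of 10, where 0.00782% of all genes were lower and 0.0156% higher. There were 0 at an unadjusted p under 0.05 and 0 by DESeq2, with values from -0.19 to 0.086 and intervals that spanned -0.72 to 0.78. These comparisons use the same 2 vehicle samples as SR-3420 against vehicle, replicates 2 and 3, while each inhibitor group held replicates 1, 2 and 3.

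What an inhibitor added on top of SR-3420 was read against SR-3420 alone. Triacsin C lowered 4 of the 10 enzymes further, where 3.55% of all genes were lower. They were Acads at -1.01 ± 0.27 (SE) (n = 2 and 3, adjusted p = 0.0494), Hadh at -0.70 ± 0.15 (SE) (adjusted p = 0.0214), Acadvl at -0.60 ± 0.13 (SE) (0.0167) and Hadha at -0.53 ± 0.12 (SE) (0.0211). The rest lay between -0.65 for Acaa2 and -0.29, and the median was -0.58 against 0.017 over all genes. The count was 0 without SR-3420 replicate 1, 0 without replicate 1 of triacsin C with SR-3420, and 1 without each of SR-3420 replicate 3 (Hadh), replicate 2 (Acadvl) and replicate 3 (Hadh) of triacsin C with SR-3420. A fit of only these 5 samples called 0 and DESeq2's Wald test called 5. With the replicate number fitted as a block 8 were lower, beside 1731 of the 12786 genes.

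Etomoxir added to SR-3420 lowered 0 of 10, where 0.00782% of all genes were lower, with 5 at an unadjusted p under 0.05 and 0 by DESeq2. Its values ran from -0.75 for Acads to -0.0054 for Acadm, and the smallest adjusted p was 0.334. With the replicate number fitted as a block 5 were lower, beside 1077 of the 12786 genes. Both comparisons use the same 2 SR-3420 samples, replicates 1 and 3, while each group with an inhibitor held replicates 1, 2 and 3.

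The difference between responses was tested directly, as the SR-3420 change in one arm less that in another. The response of Acadvl was further below 0 with triacsin C than without inhibitor, the difference being -0.89 ± 0.18 (SE) (adjusted p = 0.0215), and so was that of Hadha, at -0.70 ± 0.17 (SE) (adjusted p = 0.0432). These were 2 of 10 enzymes, where 1.27% of all genes were lower in this test. Acads at -1.20 (adjusted p = 0.125) and Hadh at -0.74 (0.0994) did not pass, and the median of the 10 was -0.72 against -0.040 over all genes. Both calls were lost without vehicle replicate 3, either SR-3420 sample, triacsin C replicate 2 or 3, or replicate 1 or 3 of triacsin C with SR-3420, with an adjusted p of 0.0545 to 0.148 for Acadvl. Acadvl alone passed without vehicle replicate 2, triacsin C replicate 1 or replicate 2 of triacsin C with SR-3420, and over all 10 samples left out in turn the adjusted p of Hadha ran from 0.0738 to 0.224. With no filter on low counts 0 passed (0.0562 and 0.163), and 1 passed with DESeq2's size factors, with the total count alone, or with only the groups compared. DESeq2's Wald test called 3. With the replicate number fitted as a block 8 were lower, beside 932 of the 12786 genes.

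The etomoxir arm differed from the arm without inhibitor for 0 of 10 enzymes, where 0% of all genes were lower in this test. There were 0 at an unadjusted p under 0.05 and 0 by DESeq2, with values from -0.61 to 0.040 and 95% intervals that spanned -1.44 to 0.97. Between the triacsin C and etomoxir arms 0 of 10 differed by edgeR's quasi-likelihood test, where 0.774% of all genes were lower. Here 3 had an unadjusted p under 0.05, Acadvl at -0.57 (adjusted p = 0.0999), Echs1 at -0.46 and Hadha at -0.44, and DESeq2 called 1, Acadvl. All 10 of these values were below 0, from -0.71 to -0.33. The 3 tests share arms, so their values are not independent.

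The enzymes did not vary alike from sample to sample. Over the 16 samples, which share treatments and cultures, log2 levels of Acadl, Acadm, Etfdh and Hadhb ran closely together, with a Pearson r from 0.95 for Hadhb and Etfdh to 0.99 for Acadm and Etfdh. Acadvl, Hadha, Hadh and Echs1 also ran together, from 0.96 for Acadvl and Hadh to 0.98 for Hadha and Hadh, and Acads and Acaa2 had an r of 0.96. Some pairs across these sets were as high, with 0.96 for Echs1 and Etfdh and 0.95 for Acadvl and Acads, so the sets are not separate. The lowest r was 0.43, for Hadhb and Acaa2. Against the mean of the other 9, r ran from 0.73 for Acaa2 to 0.99 for Echs1. Replicate 3 was the highest sample in 6 of 6 groups for Acadl, Acadm, Hadhb and Etfdh and in 0 of 6 for Acads and Acaa2. The SD between replicates averaged 4.84% of the mean for Hadha, 6.64% for Acadvl, 8.94% for Hadh and 9.95% for Echs1. It averaged 12.6% for Etfdh, 14.4% for Acadl, 19.9% for Acaa2, 22.3% for Acads, 23.3% for Hadhb and 24.8% for Acadm.

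**Figure D4:**
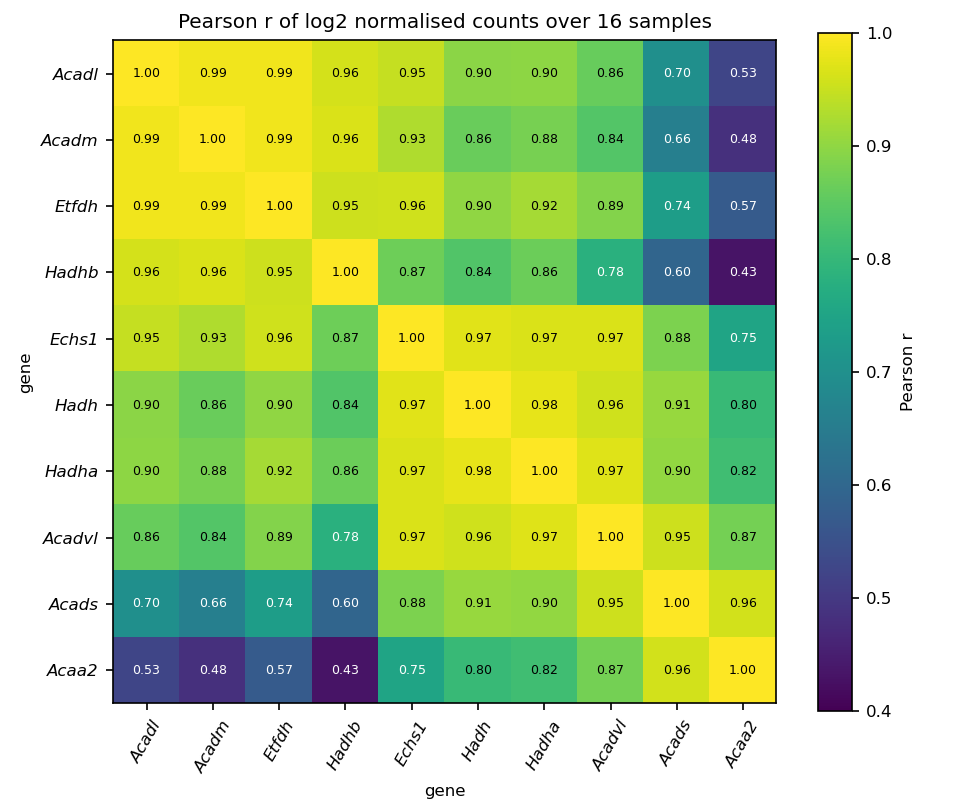
Pearson r between the log2 levels of each pair of the 10 enzymes over 16 samples (both axes list the enzymes, colour gives r without a unit). The highest r is 0.99 for Acadm and Etfdh and the lowest 0.43 for Hadhb and Acaa2.

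The genes outside the 10 whose levels followed their mean most closely were Acat1, Ephx2, Ces1d and Cd302, each with a Pearson r of 0.99, and Ehhadh with 0.98, over 16 samples and among 9828 genes with a mean normalised count of at least 100. Acat1 and Ehhadh are themselves enzymes of fatty acid and ketone metabolism.

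Another list held the electron transfer flavoprotein, auxiliary enzymes of beta-oxidation and related enzymes of mitochondria, among them Ivd and Acad8, known from the breakdown of branched-chain amino acids. Of these 13 genes, 7 were lower with SR-3420 alone, 13 with triacsin C, 10 with etomoxir and 13 averaged over the 3 arms, with medians of -0.68, -1.20, -0.85 and -0.94. Over all genes 2.79%, 19.7%, 12.8% and 23.4% were lower, with medians of -0.0038, 0.019, 0.0094 and 0.0076. Acat1, a thiolase, averaged (± SD, n = 2 for vehicle and SR-3420 and n = 3 for other groups, as for the group means that follow) 478 ± 25.3 CPM in vehicle, 299 ± 35.3 with SR-3420, 522 ± 26.4 with triacsin C, 208 ± 12.1 with both, 460.2 ± 27.8 with etomoxir and 239 ± 51.1 with etomoxir and SR-3420. Its average difference was -0.99 ± 0.088 (SE) (adjusted p = 1.7e-06), beside -1.40 for Ivd (5.17e-07), -1.10 for Acad11 (1.04e-06) and -0.94 for Acad8 (3.83e-07). The count of 7 with SR-3420 alone was 0 without vehicle replicate 2, 3 without vehicle replicate 3, 0 without SR-3420 replicate 1 and 1 without SR-3420 replicate 3, while the count for the average stayed at 13 without any 1 sample.

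The genes for entry of fatty acids split. Among 9 genes of the carnitine shuttle and acyl-CoA synthesis, 0 were lower (1 at an unadjusted p under 0.05 and 1 by DESeq2) and 1 was higher with SR-3420 alone, 6 lower in the triacsin C arm, 4 lower in the etomoxir arm, and 5 lower and 1 higher in the average. Of all genes 2.79%, 19.7%, 12.8% and 23.4% were lower in these comparisons, and 607 of 12786 were higher with SR-3420 alone and 2912 in the average. Cpt2, the inner carnitine palmitoyltransferase, averaged 199.6 ± 28.6 CPM in vehicle and 136 ± 2.71 with SR-3420, 243 ± 21.5 and 63.9 ± 6.10 in the triacsin C arm, and 202 ± 24.7 and 81.4 ± 10.7 in the etomoxir arm. Cpt1a, the outer one and a target of etomoxir, averaged 63.4 ± 3.71 and 135 ± 21.6, 89.5 ± 10.97 and 126 ± 17.8, and 99.2 ± 19.3 and 134 ± 30.1 CPM. In the average Cpt2 was lower, at -1.27 ± 0.088 (SE) (adjusted p = 2.29e-07), Mlycd at -1.07 (8.87e-05) and Crat at -0.78 (0.00038), and Cpt1a was higher by 0.67 ± 0.12 (SE) (0.000396). With SR-3420 alone Cpt1a was higher by 1.09 (adjusted p = 0.0123), a call lost without vehicle replicate 2 (0.0711), vehicle replicate 3 (0.103) or SR-3420 replicate 1 (0.105). That call was also lost with only the groups compared (1.06, adjusted p = 0.135). In the triacsin C arm Cpt1a did not pass (0.50, adjusted p = 0.051). There it passed without triacsin C replicate 1 (0.0478), with DESeq2's size factors (0.0439), the total count alone (0.0249) or DESeq2's Wald test (0.0291). It also passed there with no filter (0.0328), the replicate number as a block (0.000344) or only the groups compared (0.0199). In the etomoxir arm Cpt1a did not pass (0.43, 0.107). The exceptions were the fits without etomoxir replicate 1 (0.0448) or replicate 3 of etomoxir with SR-3420 (0.0388), and the block (0.00152). The count of 4 with etomoxir was 2 without replicate 2 of etomoxir with SR-3420.

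Genes of peroxisomal beta-oxidation and of the citric acid cycle, which takes up the acetyl-CoA, were counted beside 2.79% of all genes lower with SR-3420 alone, 19.7% with triacsin C, 12.8% with etomoxir and 23.4% in the average. Of 11 peroxisomal genes 2 were lower with SR-3420 alone, 8 with triacsin C, 6 with etomoxir and 9 in the average, where Acox3 was at -1.20 ± 0.084 (SE) (adjusted p = 2.37e-07) and Ehhadh at -1.31 (4.34e-06), and values were below 0 for 8, 11, 10 and 11 of them. The count with SR-3420 alone was 1 without vehicle replicate 2, vehicle replicate 3 or SR-3420 replicate 1. Of 13 citric acid cycle genes 0 were lower with SR-3420 alone (2 at an unadjusted p under 0.05 and 2 by DESeq2), 11 with triacsin C, 8 with etomoxir and 11 in the average, with medians of -0.23, -0.93, -0.61 and -0.61. Sdha averaged 1225 ± 158 CPM in vehicle and 883 ± 44.7 with SR-3420, 1354 ± 85.2 and 537 ± 25.5 in the triacsin C arm, and 1111 ± 105 and 615 ± 68.2 in the etomoxir arm (-0.89 ± 0.079 (SE) in the average, adjusted p = 1.56e-06). The count with etomoxir was 5 without etomoxir replicate 1, etomoxir replicate 2 or replicate 2 of etomoxir with SR-3420.

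Regulators known to act on these enzymes were counted beside the same shares of all genes, 2.79%, 19.7%, 12.8% and 23.4%. Of 9 genes 1 was lower with SR-3420 alone, 1 with triacsin C, 3 with etomoxir and 3 in the average, with medians of 0.084, -0.053, -0.36 and -0.12, and 0 were higher in any of these (with SR-3420 alone 1 was at an unadjusted p under 0.05 and 1 by DESeq2, and in the other comparisons 0 by both). Values were below 0 for 3 of 9 with SR-3420 alone, 7 with triacsin C, 8 with etomoxir and 8 in the average. Pparg, which is also on the adipocyte list, averaged 329 ± 27.8 CPM in vehicle and 187 ± 26.2 with SR-3420, 118 ± 4.13 and 119 ± 10.2 in the triacsin C arm, and 264 ± 30.9 and 152 ± 43.0 in the etomoxir arm. Klf15 and Rxra were lower in the average too (-1.04, adjusted p = 0.000244, and -0.54, 0.00505), as was Pparg (-0.53, 0.00121), and Ppargc1b did not pass (0.26, 0.197). The call with SR-3420 alone was that of Pparg, lost without vehicle replicate 2 (adjusted p = 0.09), vehicle replicate 3 (0.187), SR-3420 replicate 1 (0.242) or SR-3420 replicate 3 (0.0683), and the 3 with etomoxir were 5 without replicate 3 of etomoxir with SR-3420. With SR-3420 alone the call of Pparg was also lost with no filter (adjusted p = 0.0579) or only the groups compared (0.201). In that comparison Klf15 and Rxra were lower with the total count (-1.21, adjusted p = 0.0195, and -0.80, 0.0373) or the replicate number as a block (0.00678 and 0.00838). Klf15 also passed by DESeq2's Wald test (0.0181). With etomoxir and only the groups compared Pparg (0.0673) and Rxra (0.055) did not pass. Triacsin C alone lowered 7 of the 9 regulators (median -1.08 against 0.072 over all genes), beside 6.94% of all genes. Those 7 were 3 without vehicle replicate 2, 4 without vehicle replicate 3 or triacsin C replicate 1, and 5 without triacsin C replicate 2 or 3.

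The response checks Pdk4 and Plin2, transcripts known to rise with fatty acids, went up while the enzymes went down. Pdk4 averaged 102 ± 0.000702 CPM in vehicle and 485 ± 83.9 with SR-3420, 227 ± 8.65 and 518 ± 45.7 in the triacsin C arm, and 152 ± 24.03 and 466 ± 102 in the etomoxir arm. Plin2 averaged 412 ± 114 and 1771 ± 366, 719.7 ± 94.5 and 1689 ± 199, and 475 ± 106 and 1275 ± 167 CPM. The study names both as genes turned on by lipolysis, from another experiment as well as from these samples. Both were higher in each arm, by 2.25, 1.19 and 1.61 for Pdk4 (adjusted p = 4.28e-05, 0.000124 and 3.05e-05) and by 2.10, 1.23 and 1.43 for Plin2 (adjusted p = 0.000421, 0.000494 and 0.000337). With only the groups compared Plin2 with SR-3420 alone did not pass (2.08, adjusted p = 0.0596). Both were also higher with triacsin C against vehicle, beside 4.77% of all genes, though Plin2 not with only the groups compared (0.75, 0.0502). In the response difference between triacsin C and no inhibitor Pdk4 was lower, beside 1.27% of all genes. That call was lost with DESeq2's size factors (0.0592), the total count alone (0.0963) or no filter (0.118).

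**Figure D5:**
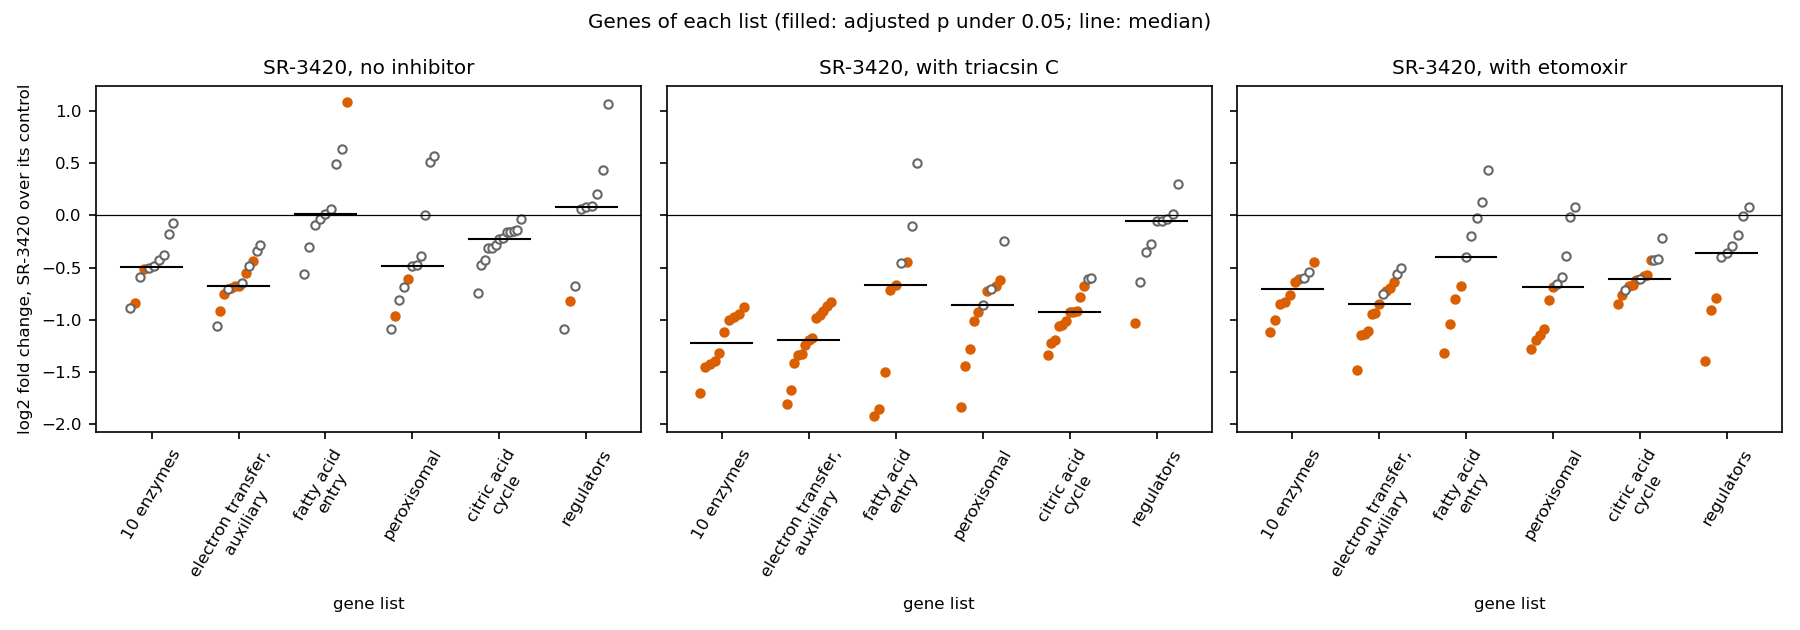
Log2 fold change for SR-3420 (log2 scale) of every tested gene of 6 lists in the arms without inhibitor, with triacsin C or with etomoxir, filled where the adjusted p was under 0.05, with a line at each list's median. With triacsin C the median was -1.22 for the 10 enzymes, -1.20 for the auxiliary and related enzymes and -0.053 for the regulators.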

How the data were processed

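RNA-seq of 16 samples in 6 groups was used. The authors aligned reads with STAR 2.4.2a to mm9, kept 1 read per position and length with HOMER, and deposited whole-number counts for 20295 genes made with iRNA-seq. Strand use and annotation are not stated. Keeping 1 read per position limits short, highly expressed genes (at most 4.80 counts per counted base among the enzymes, for Acadvl). Total counts were 9452861 to 25670624 per sample and set the counting precision.

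The 12786 genes kept by filterByExpr were tested in R 4.3.3 with edgeR 4.0.16 (TMM, a mean per group, quasi-likelihood test) and p-values adjusted over them by the Benjamini-Hochberg method. SE was taken from the test statistic. The fit was also run on simulated counts in which some genes changed alike in all groups given SR-3420. No effect of an inhibitor or of replicate number was simulated, so recovery of such effects was not tested. There were 11 comparisons. Alternatives were DESeq2 1.42.0 size factors, the total count alone, DESeq2's Wald test, no filter, at least 10 counts in every sample, the replicate number as a block, only the groups compared, and leaving out each sample.

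The members and lists were chosen with earlier results of these data known. Genes named are the 10 enzymes, in each list at most 4 with the smallest p in the SR-3420 comparison averaged over the 3 arms, and the 5 with the highest Pearson r with the enzymes' mean scaled log2 normalised count (pseudocount 1). Repeats were sought with blastn 2.17.0. Promoters were RefSeq's. Python 3.11.15 and matplotlib 3.10.9 drew the figures.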

Additional observations from a re-analysis of the deposited data

Results flagged for a closer look

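The response of Acadvl to SR-3420 was lower with triacsin C than without inhibitor by a test of the difference between the arms, at -0.89 on the log2 scale (adjusted p = 0.0215). Hadha passed the same test, at -0.70 (adjusted p = 0.0432). Acads (-1.20), Acaa2 (-0.93), Hadhb (-0.89) and Hadh (-0.74) had differences further from 0 than that of Hadha and did not pass. With the replicate number fitted as a block they passed (adjusted p 0.0198, 0.0251, 0.0283 and 0.0297). The call of Hadha was lost without any 1 sample of the 4 groups (adjusted p from 0.0738 to 0.224), and that of Acadvl without vehicle replicate 3 (0.148), SR-3420 replicate 1 (0.0913) or replicate 3 (0.0545), triacsin C replicate 2 (0.0647) or replicate 3 (0.0582), or replicate 1 (0.0562) or replicate 3 (0.0566) of triacsin C with SR-3420.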

How the results depend on the processing

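Of 1600 values of the 10 enzymes under the alternatives, 1444 kept their direction and side of the threshold, 71 no longer passed, 27 newly passed and 58 changed sign, of which 0 had passed in either fit. With triacsin C and in the average over the 3 arms, 10 enzymes were lower under every alternative run. With SR-3420 alone the 2 became 1 with no filter, 0 with only the groups compared and 0 to 1 when a sample was left out, and with etomoxir the 8 became 9 with the total count, 7 with no filter, 4 with only the groups compared and 5 to 9 when a sample was left out. The 4 for triacsin C added to SR-3420 became 5 by DESeq2's Wald test, 3 with DESeq2's size factors, the total count, no filter or at least 10 counts in every sample, 0 with only the groups compared and 0 to 1 when a sample was left out. For the response difference between triacsin C and no inhibitor the 2 became 3 by DESeq2's Wald test, 1 with DESeq2's size factors, 1 with the total count, 0 with no filter, 1 with only the groups compared and 0 to 1 when a sample was left out, and between triacsin C and etomoxir the 0 became 1 by DESeq2's Wald test. Fewer samples are part of leaving 1 out and of using only the groups compared, and the cause was not tested for the rest. A sample left alone in its group was taken to vary like those of the other groups. The average over the arms uses all groups, so the fit of only the groups compared gives no separate value for it. Replicates of the same number were more alike than others (mean r 0.41 over 35 pairs, from -0.29, against -0.20 over 71 pairs of different number). Of the 35, 27 had an r over 0.1, and 11 of 16 samples were closest to one of their own number, a hint from the data and not the design. These r used deviations from the group mean, so the 2 samples of vehicle, and of SR-3420, mirror each other. Vehicle replicate 2 and SR-3420 replicate 1 thus had the r of the replicates 3, 0.64. The counts therefore cannot decide whether equal numbers mark shared cultures. With the replicate number as a block the enzymes lower were 5 for SR-3420 alone, 10 with etomoxir, 8 for triacsin C added to SR-3420, 5 for etomoxir added to SR-3420, 8 for the response difference between triacsin C and no inhibitor and 1 between triacsin C and etomoxir. In the same fits and order 1015, 2879, 1731, 1077, 932 and 421 of the 12786 genes were lower. Values that changed sign were as follows. For triacsin C against vehicle Hadh and Echs1 were -0.035 and -0.034 with the total count, -0.032 and -0.031 with no filter and -0.016 and -0.016 with only the groups compared. For etomoxir against vehicle Acadm was 0.0050 with the total count and 0.074 with the block. For etomoxir added to SR-3420 Acadm was 0.0095 with DESeq2's size factors, 0.0091 by its Wald test, 0.019 with no filter, 0.027 with the block and 0.012 with only the groups compared, and with the total count Acadl, Acadm and Hadhb were 0.067, 0.080 and 0.010. The response difference between etomoxir and no inhibitor was -0.047 for Acadm with the block. Leaving out a sample gave -0.35 to 0.22 for Acaa2 with SR-3420 alone. For triacsin C against vehicle it gave -0.015 to 0.38 for Acadm, -0.10 to 0.54 for Acads and -0.010 to 0.10 for Echs1. For etomoxir against vehicle the ranges were -0.20 to 0.022 for Acadvl, -0.14 to 0.13 for Acadl, -0.23 to 0.17 for Acadm, -0.43 to 0.22 for Acads, -0.18 to 0.29 for Hadhb, -0.39 to 0.15 for Acaa2 and -0.082 to 0.084 for Etfdh. For triacsin C added to SR-3420 the range was -0.67 to 0.017 for Acadm. For etomoxir added to SR-3420 the ranges were -0.23 to 0.15 for Acadl, -0.34 to 0.38 for Acadm, -0.42 to 0.15 for Hadhb and -0.32 to 0.12 for Etfdh. For the response difference between etomoxir and no inhibitor they were -0.25 to 0.13 for Acadl, -0.30 to 0.42 for Acadm, -0.50 to 0.096 for Hadhb and -0.33 to 0.11 for Etfdh. The cause of these changes of sign was not tested.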
